A study of Mus musculus with 15 samples.

Results

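DNA methylation was examined at 10 germline genes known to be silent in somatic tissue, in the mouse dentate gyrus, the part of the hippocampus where granule neurons are born in adult life. Their expression was not measured here, so silence is background and not a result. The set was Dazl, Ddx4, Sycp1, Sycp3, Hormad1, Mael, Tdrd1, Slc25a31, Rpl10l and Tex101. Its members are a named list of genes used in germ cells, and every measured CpG position inside them or within 2 kb of them was taken, including positions with a value in only some mice. This gave 71 CpG positions of 455836 in the table, at 8 of the 10 genes. Ddx4, a germ cell RNA helicase, and Sycp3, a lateral element protein of the synaptonemal complex, had none, so only their promoter sequences are described. A position here is 1 cytosine on 1 strand, so a CpG can count once for each strand.

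The assay, reduced representation bisulfite sequencing (RRBS), cuts DNA at CCGG with MspI and reads the short, CpG-rich fragments after bisulfite conversion. All 15 mice were C57BL/6JRj females aged 7.5 months, and the labels name no transgene or agent. The 5 standard mice spent 6 months in standard cages, the 5 enriched mice spent 6 months in an enriched environment, and the 5 withdrawal mice spent 3 months in enrichment and then 3 months in standard cages. Each title names 1 mouse of a group. The labels do not say which mice shared a cage, so the spread between mice is the only error measured. In bulk tissue, a share of cells that differ in methylation and a partial methylation of every cell cannot be told apart.

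Many germline genes have CpG-rich promoters that gain DNA methylation around implantation, unlike most CpG-rich promoters, which stay unmethylated. Repressors such as the PRC1.6 complex, which carries E2F6 and MGA and can recognise E2F sites and E-boxes, also act on many of them. In germ cells the marks are erased, and the genes are used in meiosis, in transposon control by piRNAs and in sperm.

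The following 4 promoters show where the measured CpGs of the members fall, and were chosen because they are the ones in the set with a measured CpG between 250 bases before and 30 bases after the start. They are RefSeq sequences of build GRCm38.p6, written 5′ to 3′ on the strand of the gene, and capitals mark each CpG with a value in this data set. Slc25a31 lies at chr3:40708621-40708900 on the plus strand, Rpl10l at chr12:66284372-66284651 on the minus strand, Tex101 at chr7:24672021-24672300 on the minus strand and Mael at chr1:166238715-166238994 on the minus strand.
Slc25a31: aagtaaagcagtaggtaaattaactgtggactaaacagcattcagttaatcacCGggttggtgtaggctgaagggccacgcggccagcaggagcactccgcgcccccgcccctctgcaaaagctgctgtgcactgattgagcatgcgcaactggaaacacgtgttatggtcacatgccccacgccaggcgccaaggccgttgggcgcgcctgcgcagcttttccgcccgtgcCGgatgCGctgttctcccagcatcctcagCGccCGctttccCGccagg
Rpl10l: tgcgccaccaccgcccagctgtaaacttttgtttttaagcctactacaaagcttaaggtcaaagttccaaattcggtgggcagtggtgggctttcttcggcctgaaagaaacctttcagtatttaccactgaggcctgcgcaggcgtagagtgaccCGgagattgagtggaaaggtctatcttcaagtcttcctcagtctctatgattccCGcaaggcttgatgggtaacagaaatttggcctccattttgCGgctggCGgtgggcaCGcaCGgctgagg
Tex101: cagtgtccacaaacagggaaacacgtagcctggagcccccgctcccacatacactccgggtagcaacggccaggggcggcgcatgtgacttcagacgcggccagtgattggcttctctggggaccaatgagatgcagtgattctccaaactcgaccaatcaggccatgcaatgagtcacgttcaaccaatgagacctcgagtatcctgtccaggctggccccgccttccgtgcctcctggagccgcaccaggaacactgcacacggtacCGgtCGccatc
Mael: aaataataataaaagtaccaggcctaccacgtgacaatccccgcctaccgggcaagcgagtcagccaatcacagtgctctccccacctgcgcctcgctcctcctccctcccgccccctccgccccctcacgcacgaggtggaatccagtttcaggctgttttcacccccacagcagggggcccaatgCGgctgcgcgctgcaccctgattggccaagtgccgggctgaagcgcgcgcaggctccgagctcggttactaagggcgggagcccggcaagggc
A value was present for 6 of 21 CpGs in this stretch at Slc25a31, 6 of 12 at Rpl10l, 2 of 17 at Tex101 and 1 of 21 at Mael.

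All 10 member promoters were CpG-rich, here meaning a GC content of at least 50% and an observed over expected CpG ratio of at least 0.6 in the 300 bases around the start. Their ratios ran from 0.643 at Rpl10l to 0.978 at Ddx4, with a median of 0.756. Among all 17274 promoters with a sequence, 46.3% were CpG-rich and the median ratio was 0.586. The 3 motifs below were searched on both strands. CCGG, the cut of MspI, lay in all 10 member promoters and in 62.5% of all promoters. CACGTG, an E-box, lay in 7 of 10 members, all except Dazl, Tex101 and Rpl10l, and in 8.01% of all promoters. GCGGGA, a core of E2F sites, lay in 7 of 10 members, all except Dazl, Tdrd1 and Tex101, and in 26.1% of all promoters. Each of the 3 motifs holds a CG, and all members but only 46.3% of all promoters were CpG-rich. The shares over all promoters are thus not matched for CpG content. A match describes letters and is not evidence of binding.

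A total of 3 measured positions fell inside a GCGGGA match at a member. Slc25a31 had its match from 20 bases inside the gene, where the CpG read 97.2% methylated on the plus strand and 99.3% on the minus strand. In the Slc25a31 sequence above it is the last CpG in capitals, and the motif reads on the opposite strand. Rpl10l had its match 43 bases before the start, where the CpG read 97.3%. Over all promoters, 718 positions at 575 genes lay in such a match, with a median of 0% methylation, and 6 of them (0.836%) reached 80%, the 3 member positions included. No measured CpG of a member lay in an E-box match.

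Member positions were mostly methylated. Of the 71 positions, 60 (84.5%) had a mean over mice of at least 80%, and 52 had at least 90%. Over all CpG positions, 30.4% reached 80%, 52.4% were under 20%, and the mean was 38.9%. At the members 6 positions were under 20%, all of them at Dazl, and 5 lay between. Of the 904 single values at the members, 534 (59.1%) were exactly 100%. Most positions lay near a start: 60 were within 1 kb of it, 52 were inside a gene and 19 before one.

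**Figure D1:**
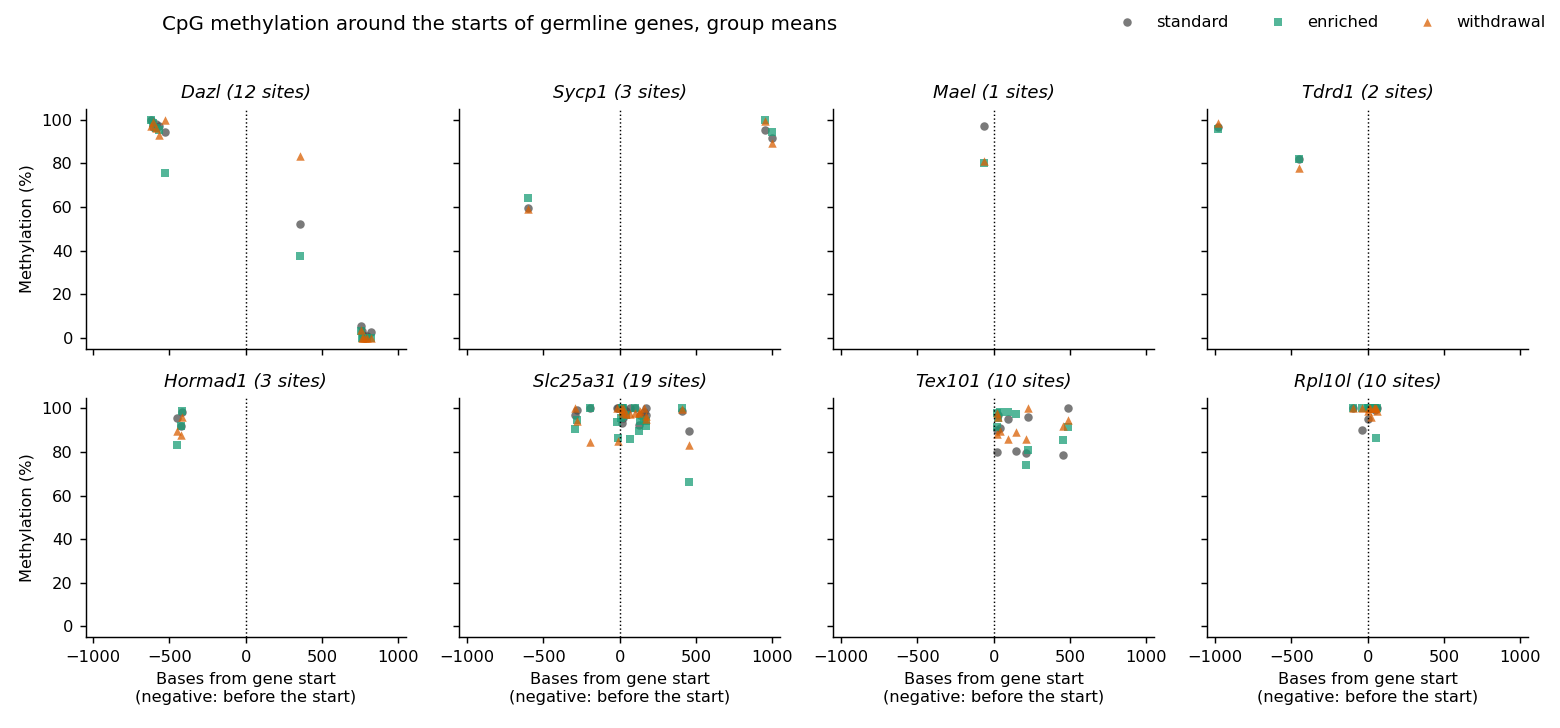
Percent methylation of each measured CpG position (group mean, 1 colour per housing group) against its distance in bases from the start of the gene, for the 8 measured genes within 1 kb. Positions sit near 100% at Rpl10l and Slc25a31, and Dazl alone has a cluster near 0%, 754 to 822 bases inside the gene.

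Dazl, an RNA-binding protein that promotes translation in germ cells, had the most uneven profile. It had 12 measured positions in 3 clusters, all within 1 kb of its start on chromosome 17. The 5 positions 530 to 618 bases before the start had means from 88.5% to 99.1%. Each mouse was averaged over them with an adjustment for its missing positions. This gave 96.7% ± 1.58 (SD, n = 5) for standard mice, 93.8% ± 5.23 (n = 5) for enriched mice and 96.1% ± 1.43 (n = 5) for withdrawal mice. The 6 positions 754 to 822 bases inside the gene had means from 0% to 4.04%. There, 58 of 66 values were exactly 0% and the highest single value was 20.8%. A single position between these clusters, 357 bases inside, averaged 60.4% ± 30.3 (SD, n = 10) and ran from 15.4% to 100%. The gene thus passed from nearly full to nearly no methylation within the 2 kb around its start, and the promoter sequence between the outer clusters had no measured CpG.

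Among the genes of meiotic chromosomes, Sycp1 and Hormad1 were measured. Sycp1 encodes the transverse filament of the synaptonemal complex, which zips homologous chromosomes together. Its position 599 bases before the start was only partly methylated, at 61.0% ± 17.6 (SD, n = 15), and ran from 21.2% in enriched mouse 2 to 88.3% in enriched mouse 1. Both of these extremes lay in the same housing group. The 2 positions 950 and 998 bases inside Sycp1 read 98.6% and 91.5%, and the position 70346 bases inside read 85.6%.

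Hormad1, a protein of the meiotic chromosome axis that monitors pairing, had 3 positions 421 to 450 bases before its start, with means of 90.3% to 97.6%. Further inside, positions at 5341 and 5364 bases read 100% and 96.6%. At 22398 bases the level was 64.9%, and 58 bases further on it was 94.8%. Neighbouring positions of Hormad1 were thus not always at a like level.

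The piRNA pathway, which silences transposons in the male germline, was represented by Mael and Tdrd1. Mael, a component of germ cell granules, had 1 measured position, 62 bases before its start and in capitals in the sequence above. It was at 100%, 89.3%, 100% and 100% in standard mice 1 to 4. The enriched values were 40%, 100% and 100% in mice 1, 4 and 5, and the withdrawal values were 100%, 75% and 68.8% in mice 1, 4 and 5. The groups overlapped, since each held a mouse at 100%. The other 5 mice had no value at Mael.

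Tdrd1, a Tudor protein that binds methylated PIWI proteins, had all 8 of its positions at 80% or more. The position 983 bases before the start read 97.0% ± 3.30 (SD, n = 15), while the position 449 bases before it read 80.7% ± 23.0 (SD, n = 10). A cluster of 4 positions 2444 to 2505 bases inside had means of 89.3% to 98.6%. Standard mouse 2 stood apart there, with 3 of its 4 values between 29.4% and 33.3% and the other at 100%. The positions 37321 and 37376 bases inside read 90.6% and 95.8%.

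The last 3 genes act in male germ cells, from meiosis to sperm. Slc25a31 encodes an ADP/ATP carrier, and had the most measured positions, 19. The 14 positions from 18 bases before to 174 bases after its start had means of 91.7% to 99.3%, and the 3 positions 196 to 296 bases before it had 93.8% to 96.5%. Levels were 99.4% at 411 bases inside and 79.8% at 457 bases inside, the lowest of the gene. At its start, 175 of 240 single values (72.9%) were at 100%.

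Rpl10l, an intronless copy of the X-linked ribosomal protein gene Rpl10 that is used in male meiosis, was the most completely methylated member. Its 10 positions, from 94 bases before to 58 bases after the start, had means of 96.8% to 100%. Of 126 single values, 119 were at 100%, and 4 positions were at 100% in every mouse with a value. The gene is 1023 bases long, so 5 of these positions also lay within 1 kb of its other end.

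Tex101, a GPI-anchored sperm surface protein needed for fertility, had 10 positions inside the gene, from 19 to 486 bases after the start. Their means ran from 78.9% at 214 bases to 96.3% at 29 bases. The SD of a single Tex101 position between mice ran from 5.33 to 17.8 points, against 0 to 11.4 at Rpl10l.

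For each start, a mouse value was the mean of the position means within 1 kb, plus the mean deviation of its own positions. It allows for missing positions and is not a plain average of the values in that mouse. In order, the mean over mice was 99.0% at Rpl10l, 95.8% at Slc25a31, 92.8% at Hormad1, 90.4% at Tex101, 88.9% at Tdrd1, 87.3% at Mael, 83.6% at Sycp1 and 45.0% at Dazl. Neighbours in this order overlapped between mice, apart from Sycp1 and Dazl. Dazl ran from 37.1% to 51.7% over the mice, and the lowest Sycp1 value was 73.7%. The level of Dazl is an average of its methylated and unmethylated clusters and describes neither. Of these 8 starts, 7 were at 80% or more. Of all 9167 starts with a measured position, 4.89% reached that level, and of the 6233 with a CpG-rich promoter 1.22% did, while 94.0% of those were under 20%. With at least 3 positions, 5 of 6 member starts and 0.716% of 5864 CpG-rich starts reached 80%. Mael rests on 1 position and Tdrd1 on 2. At Sycp1, Tdrd1, Hormad1 and Dazl no measured position lay in the 300 bases used to class a promoter as CpG-rich. Their levels thus describe the sequence around that stretch.

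**Figure D2:**
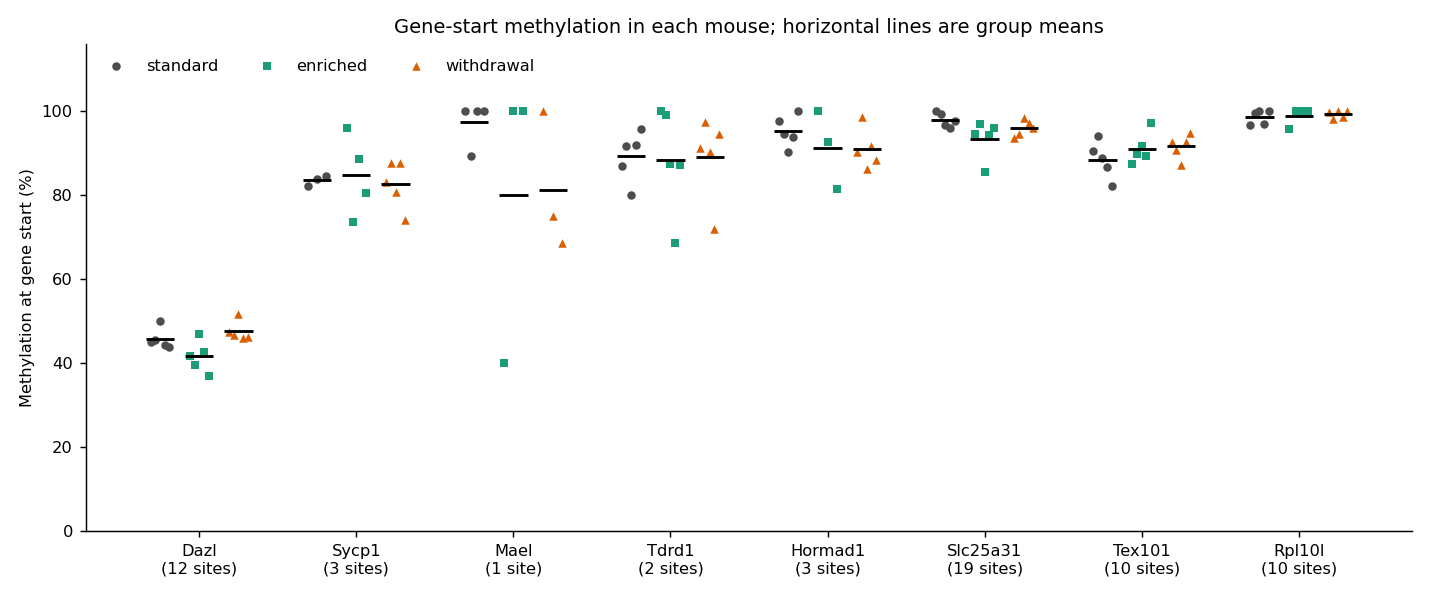
Percent methylation within 1 kb of the start of each gene, 1 point per mouse, adjusted for its missing positions. Colours give the housing group, and a horizontal line lies at each group mean. Rpl10l stays between 95.9% and 100%, Dazl between 37.1% and 51.7%, and the 3 groups overlap at all 8 genes.

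Among the CpG-rich starts with at least 3 positions, 42 reached 80%. They comprised 5 members, 6 other germline genes of the lists below (Asz1, Brdt, Fkbp6, Meioc, Rpl39l and Tex14) and 31 genes outside these lists. Whether any of those 31 is used in germ cells was not examined. The level of the members is a description, since they were chosen as silenced genes and with earlier results of these data known. Their share beside that of all starts is therefore not a test.

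**Figure D3:**
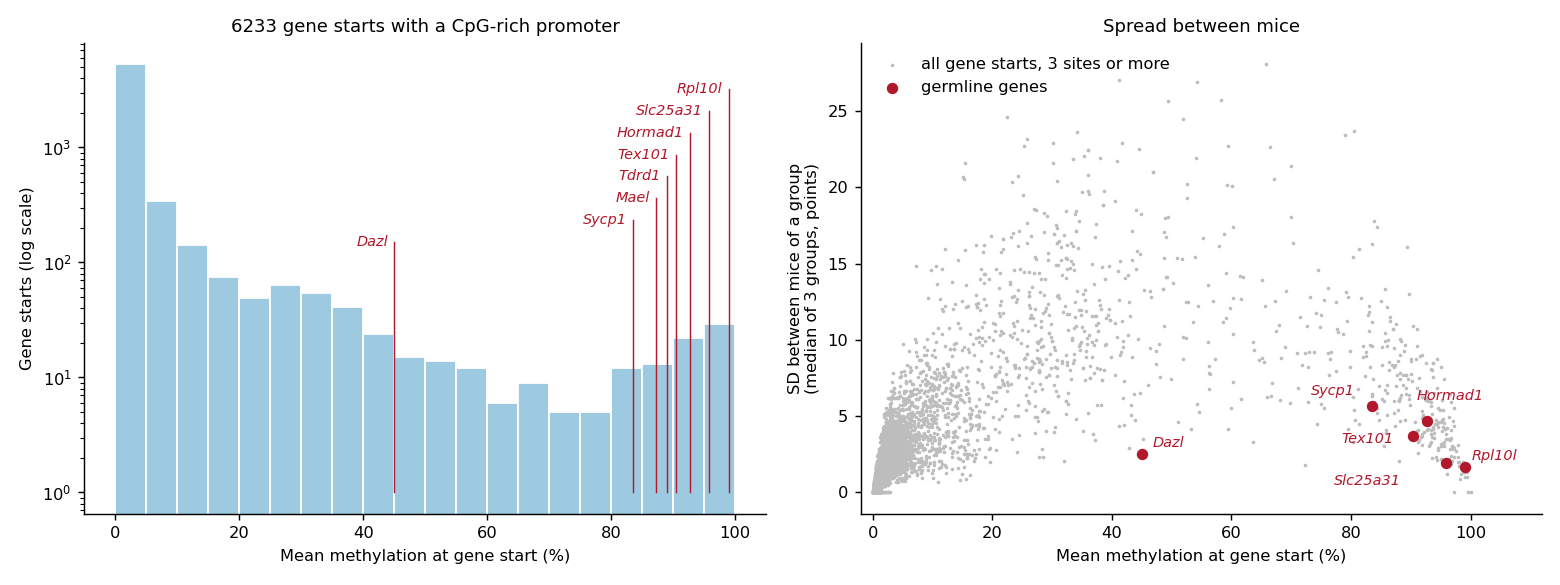
Left, the number of CpG-rich gene starts (log axis) by mean percent methylation, with red lines at the 8 measured members; right, the SD between mice (median of the 3 groups, in percentage points) against the mean for all starts with at least 3 positions, with 6 members in red. Red lines of 7 genes lie at 80% or more, in the sparse right tail, and Dazl lies at 45.0%.

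Spread between the mice of a group varied over these starts. The SD between mice, as the median of the 3 groups, was 1.63 points at Rpl10l, 2.49 at Dazl, 5.68 at Sycp1 and 9.99 at Tdrd1. Single groups could lie far from this median, as at Sycp1 with 1.19 in standard and 9.71 in enriched mice. The 5 members at 80% or more with at least 3 positions had a median of 3.72. All 237 starts of that kind had a median of 5.56, with quartiles of 3.62 and 8.08. They were not matched to the members for number of positions or for level. The largest SD among the 8, 16.5 points, was at Mael, which rests on 1 position. Averaged over all member positions of at least 80%, the deviation of a mouse from the mean of all mice ran from -2.06 to 1.36 points among standard mice, from -2.49 to 3.18 among enriched mice and from -0.554 to 1.82 among withdrawal mice.

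The number of reads behind a value is unknown, because only percentages were deposited, so no counting interval is given. As a partial view of depth, 12 of the 71 member positions (16.9%) had a value in all 15 mice, against 25% of all CpG positions, and a member position had values in 10 to 15 mice (median 13). A mouse had values at 46 to 70 of the 71. Positions in 1 fragment share reads, so the clusters are not independent measurements. Non-CpG cytosines at the members averaged from 0.389% at Dazl to 1.45% at Tdrd1.

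Housing was compared to ask whether 6 months of enrichment, or enrichment followed by its withdrawal, went with a different methylation level at these genes. No member position or start passed the test in any comparison. limma was fitted to all positions and all gene ends that passed the filters, on log2((percent + 5)/(100 - percent + 5)). A call needed an adjusted p under 0.05. A position also needed a range of at least 5 points between mice, which 62 of the 71 member positions had. All 71 had values in at least 3 mice of each group. Of the member gene ends, 7 (6 starts and the far end of Rpl10l) had enough positions to be tested. None of these was called in the 3 comparisons. Neither was any of the 350663 positions (0%) or 9611 gene ends (0%) of the table that passed the same filters. The smallest adjusted p among member positions in limma was 0.892 where enriched and standard mice were compared, 0.911 for withdrawal and standard mice, and 0.922 for withdrawal and enriched mice. The 3 comparisons share mice, so their differences are not independent.

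At an unadjusted p under 0.05, 3 of 62 member positions passed between enriched and standard mice, 1 between withdrawal and standard mice and 3 between withdrawal and enriched mice. These shares of 4.84%, 1.61% and 4.84% stand beside 4.67%, 4.3% and 4.18% over all tested positions. Among the 7 gene ends the counts were 1, 0 and 0, beside 5.16%, 5.21% and 4.71% of all gene ends. The median size of a difference at member positions was 0.41, 0.48 and 0.46 on the log2 scale in the same order, against 0.57, 0.55 and 0.54 over all positions. Gene ends went the other way, with 0.30, 0.22 and 0.26 at the 7 member ends against 0.19, 0.19 and 0.18 over all gene ends. Neither set was matched to the members for level, and 86.8% of all measured starts were under 20%. Rpl10l counts among the 7 with both its ends, which share 5 positions. With limma on plain percentages in place of the log2 ratio, no member was called either.

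The start of Slc25a31 gave the smallest p among the member starts. Its level was 100%, 99.4%, 96.6%, 96% and 97.6% in standard mice 1 to 5. In enriched mice 1 to 5 it was 94.7%, 97.0%, 85.5%, 94.4% and 96%, and in withdrawal mice 93.5%, 94.7%, 98.4%, 97.2% and 96.1%. The enriched values overlapped the standard ones at their upper end, and enriched mouse 3 lay below all others. The mean of the standard mice was 97.9% ± 1.74 (SD, n = 5), that of the enriched mice 93.5% ± 4.62 (n = 5) and that of the withdrawal mice 96% ± 1.93 (n = 5). Enriched minus standard was -0.72 ± 0.32 (SE) on the log2 scale, with a 95% interval of -1.40 to -0.05 and an adjusted p of 0.902 in limma (unadjusted p = 0.0369). Without enriched mouse 3 the difference was -0.46.

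The other starts had intervals on both sides of 0 in every comparison. At Dazl the standard mice had a mean of 45.8% ± 2.49, the enriched mice 41.7% ± 3.76 and the withdrawal mice 47.6% ± 2.37 (SD, n = 5 each). Enriched minus standard at Dazl was -0.22 (95% interval -0.69 to 0.26), and withdrawal minus enriched was 0.32 (-0.16 to 0.79). Tex101 averaged 88.4% ± 4.42, 91.1% ± 3.72 and 91.6% ± 2.81 (SD, n = 5 each) in the same order. Its enriched minus standard difference was 0.30 (-0.38 to 0.98), and it was 0.09 without enriched mouse 5, 0.15 without standard mouse 5 and 0.47 without standard mouse 2. Rpl10l averaged 98.7% ± 1.63 (n = 5), 99.0% ± 2.06 (n = 4) and 99.3% ± 0.907 (n = 5), and its enriched minus standard difference was 0.09 (-0.55 to 0.73).

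Sycp1 and Hormad1 had the widest intervals. Sycp1 averaged 83.5% ± 1.19 (n = 3), 84.7% ± 9.71 (n = 4) and 82.7% ± 5.68 (n = 5), and enriched minus standard was 0.24 (95% interval -0.83 to 1.32). Hormad1 averaged 95.3% ± 3.71 (n = 5), 91.3% ± 9.34 (n = 3) and 91.1% ± 4.66 (n = 5), and enriched minus standard was -0.39 (-1.62 to 0.85). Mael and Tdrd1 had under 3 positions at their start and were not tested there. Tdrd1 averaged 89.2% ± 6.03, 88.5% ± 12.6 and 89.1% ± 9.99 (SD, n = 5 each).

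**Figure D4:**
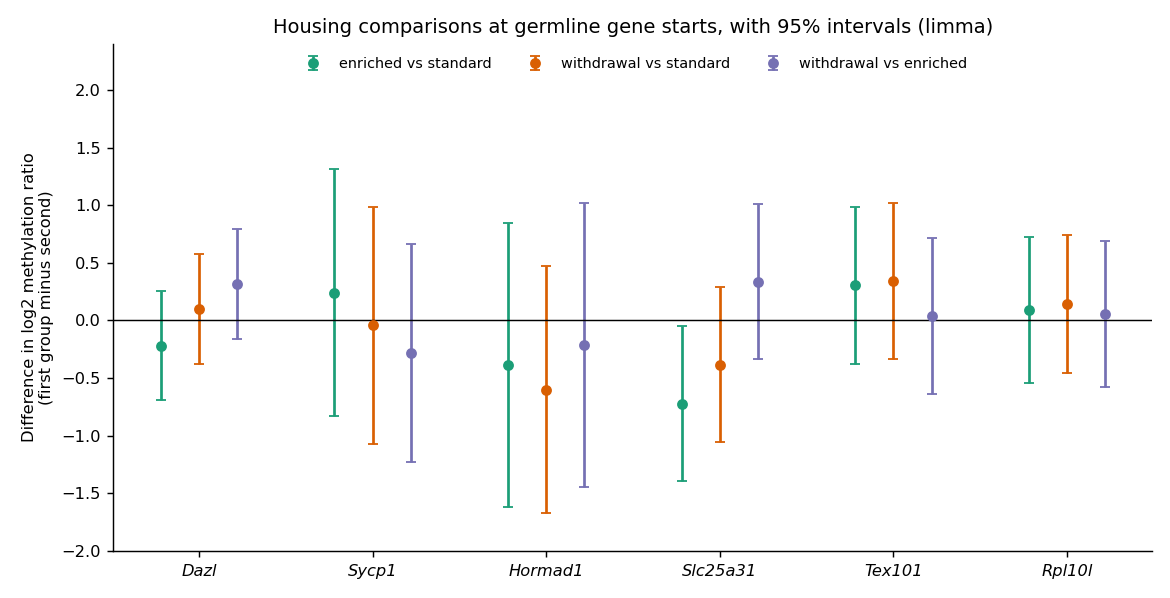
Difference between housing groups at the 6 tested starts, on the log2((percent + 5)/(100 - percent + 5)) scale, as limma estimates (points) with 95% intervals (bars) for the 3 comparisons. Only the interval of Slc25a31 for enriched against standard, -1.40 to -0.05, leaves out 0, and no adjusted p passes.

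Single positions with the smallest p in each comparison lay at Tex101, Slc25a31 and Dazl, and each missed the threshold. At Tex101, 23 bases inside the gene and in capitals in the sequence above, standard mice read 71.4%, 90.6%, 70.4%, 100% and 66.7%. The enriched mice read 100%, except 88.5% in mouse 3. Enriched minus standard was 17.9 points with an adjusted p of 0.892 in limma, and 1 standard mouse was as high as the highest enriched mice. At Slc25a31, 457 bases inside, standard mice read 100%, 97.9%, 76.1%, 92.9% and 81.1%. Enriched mice read 49.0%, 94.0%, 73.1%, 67.5% and 48.1% there, a difference of -23.2 points, with enriched mouse 2 inside the standard range. Another position, 67 bases inside Slc25a31, was 13.9 points lower in enriched than in standard mice in the mean, and enriched mouse 5 was at 100%, as the standard mice were.

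For withdrawal, the position 196 bases before Slc25a31 was at 100% in the 3 standard and the 3 enriched mice with a value. The withdrawal mice read 84.6%, 82.6%, 70.6% and 100% there. Its mean was 15.5 points lower in withdrawal than in either other group, and 1 withdrawal mouse overlapped both. The Dazl position 357 bases inside had a mean of 83.5% over withdrawal mice, 52.2% over standard mice and 37.7% over enriched mice. Withdrawal mice read 94.1%, 100%, 64.9% and 75%, standard mice 84.6%, 42.9% and 29.2%, and enriched mice 15.4%, 72.7% and 25%, so the groups overlapped. At Tex101, 228 bases inside, the 3 withdrawal mice with a value were at 100%, and withdrawal minus enriched was 19.3 points. Enriched mice 3 and 5 were also at 100% there. The Dazl position 618 bases before the start was at 100% in all standard and enriched mice, and withdrawal minus standard was -2.83 points. Withdrawal mice 3 and 5 were at 100% there too. The adjusted p in limma of these positions was 0.911 or more in the comparisons named.

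Other germline genes, from lists of the same pathways, were not uniformly methylated at their starts. Of 81 listed genes 28 had a measured start, with 13 at 80% or more, 4 between 20% and 80% and 11 under 20%. Only 17 of the 28 were CpG-rich, with 6 at 80% or more and 9 under 20%. Promoters that are not CpG-rich are more often methylated, since 12.7% of all such starts reached 80%. Of meiosis genes 10 of 29 were measured, 2 of them at 80% or more and 7 under 20%, with a median of 3.05%. Brdt, a testis bromodomain protein, was at 93.3% and Meioc, a meiotic entry factor, at 90.9%, whereas Syce2 of the synaptonemal complex was at 1.6% and Mei4, needed for meiotic DNA breaks, at 1.92%. The starts of Sycp1 and Hormad1, at 83.6% and 92.8%, were nearer to the former pair. Of piRNA genes 6 of 17 were measured, with a median of 35.2%. Asz1 was at 95.6% and Fkbp6 at 86.0%, and Exd1 at 1.35% and Tdrd5 at 1.75%.

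Of germ cell development genes 4 of 18 were measured, at a median of 92.9%, from Nobox at 61.4% and Taf7l at 88.9% to Tex14 at 96.8% and Sohlh2 at 97.0%. Only Tex14 among them was CpG-rich. Of sperm proteins and testis retrogenes 8 of 17 were measured, with 6 at 80% or more and 2 under 20%. Ppp3r2 was at 98.1% and Pdha2, a retrogene of a pyruvate dehydrogenase subunit, at 97.3%. Utp14b and Cstf2t, also retrogenes, were at 1.34% and 1.37%. Of the 8 starts 3 were CpG-rich, with 1 at 80% or more and 2 under 20%. Utp14b and Cstf2t were CpG-rich, and Ppp3r2 and Pdha2 were not.

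Among the genes of known repressors of germline promoters, all 9 measured of 11 were CpG-rich and under 20% at their starts, as were 94.0% of all CpG-rich starts. They had a median of 1.67%, from Mga at 0.370% and Pcgf6 at 0.560% to Setdb1 at 6.97% and Ehmt1 at 9.94%. The somatic counterparts of members had lower starts than Slc25a31 and Rpl10l. Ddx3x, a helicase related to Ddx4, was at 2.18%, the ADP/ATP carriers Slc25a4 and Slc25a5 at 11% and 33.6%, and Rpl10 at 32.6%. Slc25a5, Rpl10 and Ddx3x lie on the X chromosome, 1 copy of which is inactive in female cells, and the copies were not separated here. No somatic counterpart reached 80%.

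Genes of the tissue gave a reference in the same libraries. Of 6 listed markers of dentate granule cells 3 were measured, with the starts of Prox1, C1ql2 and Dsp at 1.02%, 0.588% and 1.39%. All 3 were CpG-rich, and 94.0% of all CpG-rich starts were under 20%. The astrocyte genes Slc1a3 and Aldh1l1 (2 of 3 listed) were at 1.18% and 30.5%. The microglial gene P2ry12 (1 of 3 listed) was at 24.7%, and no oligodendrocyte marker of the list was measured. These values describe methylation and not the share of each cell type, whose part in the member levels was not tested.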

How the data were processed

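The deposited table holds percent methylation per cytosine and strand for each of the 15 mice, as the authors computed it. Per the submitters' processing notes, Trim Galore 0.4.0, cutadapt 1.8.1, Bismark 0.16.1, methylKit 1.5.2 and build mm10 were used. Coverage minimum, filters and the role of each tool are not given in the sources used here. Positions before the chromosome column restarts (455836 of 2918114) were taken as CpG. All 34221 of them in RefSeq GRCm38.p6 promoter windows lie on a CG. Of these, 455664 on chromosomes 1 to 19 and X were used. Gene positions came from RefSeq GRCm38.p6, where 17274 of 21631 protein-coding genes had a strand; exons were not used.

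The members and lists were chosen with earlier results of these data known. A position needed 3 mice per group and a range of 5 points. A gene end (1 kb either side) needed 3 positions, with 2 in a mouse, and a mouse value was the mean of the position means plus the mean deviation of its own positions. limma 3.58.1 in R 4.3.3 fitted 3 group means with a variance trend to log2((percent + 5)/(100 - percent + 5)). Tests were two-sided, with Benjamini-Hochberg adjustment over all features. Scripts were tested on simulated data. Named positions are the 3 smallest p among members in each comparison, and each list names its 2 highest and 2 lowest starts. Clusters join positions at most 100 bases apart. Alternatives changed the scale, filters, windows, variance trend, mice and replicate block.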

Additional observations from a re-analysis of the deposited data

Results flagged for a closer look

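In 35 groups of 4 or 5 mice, 9 had a highest or lowest mouse separated from its group by more than Dixon's 95% criterion allows, and chance gives about 1 group in 20. At the start of Dazl, standard mouse 3 was high at 50.1% (next mouse 45.5%) and withdrawal mouse 3 was high at 51.7% (next 47.6%). Both were also the highest of their group at the single Dazl position 357 bases inside, at 84.6% and 100%. Withdrawal mouse 3 had no value at the 6 positions near 0%. The part of each position in these levels was not tested. At Mael, standard mouse 2 was low at 89.3%, the other 3 being at 100%. At Tdrd1, withdrawal mouse 4 was low at 72.0% (next 90.2%). At the start of Slc25a31, enriched mouse 3 was low at 85.5% (next 94.4%). At Rpl10l, enriched mouse 1 was low at 95.9%, the other 3 with a value being at 100%.

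A further 3 results, at single positions, were separated in the same way, each from mice that were all at 100%. Enriched mouse 3 was at 88.5% at the Tex101 position 23 bases inside the gene. Withdrawal mouse 1 was at 88.1% at the Slc25a31 position 67 bases inside. Standard mouse 5 was at 84.2% at the Tex101 position 228 bases inside. Where all other mice are at 100%, any lower value meets the criterion.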

How the results depend on the processing

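No member position or gene end was called under any alternative. The adjusted p in limma ran from 0.859 to 1 for the 6 member starts and from 0.86 to 1 for the named positions, which were not traced in the version with positions of 2 mice. Over all positions, 1 was called without a variance trend between enriched and standard mice and 1 between withdrawal and enriched mice. Without the range filter 62, 56 and 65 were called for enriched and standard, withdrawal and standard, and withdrawal and enriched mice, and with an offset of 1 point 1 gene end was called for withdrawal against enriched. The cause was not tested.

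Leaving out 1 mouse gave 0 to 0 called positions in each comparison and 0 to 2, 0 to 3 and 0 to 3 called gene ends in the same order. The mice whose absence gave a call were standard mouse 5 (1 for enriched and 1 for withdrawal mice against standard), enriched mouse 2 (2 against standard and 2 against withdrawal mice), enriched mouse 3 (2 against withdrawal mice), and withdrawal mice 2 and 3 (3 and 2 against standard, 3 and 2 against enriched mice). A version added after seeing the data, which admits positions with 2 mice in the shortened group, gave 4 to 111, 2 to 119 and 13 to 118 positions, and 0 among the members, whose smallest adjusted p in limma was 0.693, 0.230 and 0.249 in the same order. Positions with 3 mice in a group have no value when 1 of those mice is left out.

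With positions complete in all mice, 4 of 5 measured member starts reached 80%, against 7 of 8, and Dazl turned to -0.31 (withdrawal minus standard mice) and -0.25 (withdrawal minus enriched mice). Sycp1 for withdrawal against standard turned to 0.068 with starts of at least 1 position. When 1 mouse was left out, differences that changed sign ran from -1.04 to 0.22 (Hormad1, enriched against standard), -0.82 to 0.44 (Hormad1, withdrawal against enriched), -0.10 to 0.33 and -0.18 to 0.13 (Rpl10l, same comparisons), -0.16 to 0.56, -0.60 to 0.12 and, for withdrawal against standard, -0.15 to 0.12 (Sycp1), and -0.081 to 0.24 (Tex101, withdrawal against enriched). The 7 starts at 80% or more stayed 7 with any mouse left out, and the median SD over the 8 starts (4.19 points) ran from 3.6 to 4.54.

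Mice with the same number in different groups did not deviate together (correlations of -0.0177 to 0.0192 in 15 pairs, 3 of 15 mice closest to their own number), so the numbers were not taken as pairs. With the replicate block, 0 positions and 0 gene ends were called in each comparison, and Sycp1 for withdrawal against standard turned to 0.16. Depth is unknown, so precision was measured only from the spread between mice and the number of mice with a value.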
